A study of Glycine max with 6 samples.

Results

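Of 45967 soybean (Glycine max) genes in the deposited table, 90 carry the Gene Ontology (GO) term for plant-type secondary cell wall biogenesis, and these genes were compared between leaves of control plants under saline-alkaline stress and leaves of stressed plants sprayed with MSN, which are mesoporous silica nanoparticles. The term alone set which genes belong, but it was chosen with earlier results of these data known. A minimum of 60 counts summed over the 6 libraries was met by 74 of the 90. The results below cover all 90 unless a minimum is named. All plants were of the cultivar HN95, labelled wild type, and grew in pots of mixed soil watered with 3 L of saline-alkaline solution, in which NaCl and Na2CO3 were at 40 mM each and NaHCO3 and Na2SO4 at 320 mM each. Polyadenylated RNA was sequenced from leaves 7 days after the spray, in 3 control and 3 MSN libraries. The protocol gives a dose of 20 mg/L, while the treatment tags read 20, 21 and 22 mg/L on the 3 MSN libraries, which the titles place in 1 treated group. Any spray on the control leaves is a detail not given in the sources used here.

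A secondary wall is laid down inside the primary wall after a plant cell has stopped growing, chiefly in the water-conducting vessels and the fibres of veins. Its main polymers are cellulose, xylan and lignin. Cellulose is made at the plasma membrane, whereas xylan is built in the Golgi apparatus: a backbone of xylose is extended, glucuronic acid side groups are added and methylated, and acetyl groups are attached before the polymer is exported to the wall.

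The 90 genes fell into a Golgi branch and a plasma membrane branch. The Golgi branch held 51 genes whose other terms name steps of xylan synthesis. Of these, 13 were classed as xylosyltransferases, 3 as xylan synthase, 9 as glucuronosyltransferases, 7 for xylan acetylation and 19 for xylan metabolic process. The class called xylosyltransferase was set by a term for xylosyltransferase activity or by a term for a beta-glucuronosyltransferase activity. The class called xylan synthase was set by a term for glucuronoxylan glucuronosyltransferase activity. Another 37 genes carried the plasma membrane term and no xylan term, and 2 carried only integral membrane terms. None of the 90 was annotated as a cellulose synthase, although 55 genes of the table have that activity term, and none carried a term for an anchored membrane component, which 321 genes of the table have. The table gives only 2 of the 90 a description of their own: GLYMA_08G183700 is named fasciclin-like arabinogalactan protein 19, and GLYMA_16G001600 is named GXM3. The sequences of these genes were not used here, and each gene is called by its identifier. They lie on 18 chromosomes, and 41 of them form 13 tandem runs, defined as neighbours with at most 5 other table genes between them.

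Levels per gene length spanned a wide range. By the authors' FPKM values (fragments scaled to gene length and library size), averaged over the 6 libraries, GLYMA_08G104600 of the xylan metabolic process class was highest at 32.7, followed by the acetylation gene GLYMA_05G127700 at 30.6. The plasma membrane gene GLYMA_13G226100 was lowest at 0.00744. At the edge of the 60-count minimum, GLYMA_12G069700 was just inside with a sum of 62 counts, and GLYMA_12G070000 and GLYMA_13G327300 were just outside with 51 each.

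Most secondary wall genes were lower in MSN leaves. Of the 75 genes that passed the low-count filter of the test, 53 were lower in MSN, 5 were higher and 17 did not pass an adjusted p of 0.05 (edgeR quasi-likelihood test, Benjamini-Hochberg over 39203 genes). That is 70.7% lower and 6.67% higher, where 29.7% of all tested genes were lower and 29.6% higher. A called decrease of 1 or more (log2) was seen for 37 of the 75, and a called increase of that size for 0, against 7.01% and 9.27% of all tested genes. The groups of 3 libraries did not overlap for 62 of the 75, 56 lower and 6 higher in MSN, where they did not overlap for 65.0% of all tested genes and were apart and lower for 32.2%. The median log2 fold change was -1.02, and it was 0.01 over all tested genes. Of the 75, 10 had under 10 counts in every MSN library and so passed the filter through the control libraries alone, which means that they had to differ. Without these 10, all of them plasma membrane genes in tandem runs, 43 of 65 were lower and 5 higher, and the median was -0.67. Some of the 65, among them GLYMA_06G169900 and GLYMA_18G006000, still had MSN libraries under 10 counts, so that only their control libraries met the filter as a group. Their decreases are not separate from the filter, and the 43 of 65 still includes them. Outside tandem runs 29 of 46 were lower and 5 higher, with a median of -0.56. Among the 60 genes with at least 60 counts in all and at least 30 in each group, 39 were lower and 5 higher, with a median of -0.60. Of the 74 genes with at least 60 counts over the 6 libraries, 73 were tested, and 51 were lower and 5 higher, with a median of -0.98. Among the 52 genes with at least 600 counts over the 6 libraries, 40 were lower and 5 higher. In whole-leaf RNA, fewer cells of a type and less RNA per cell cannot be told apart.

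**Figure D1:**
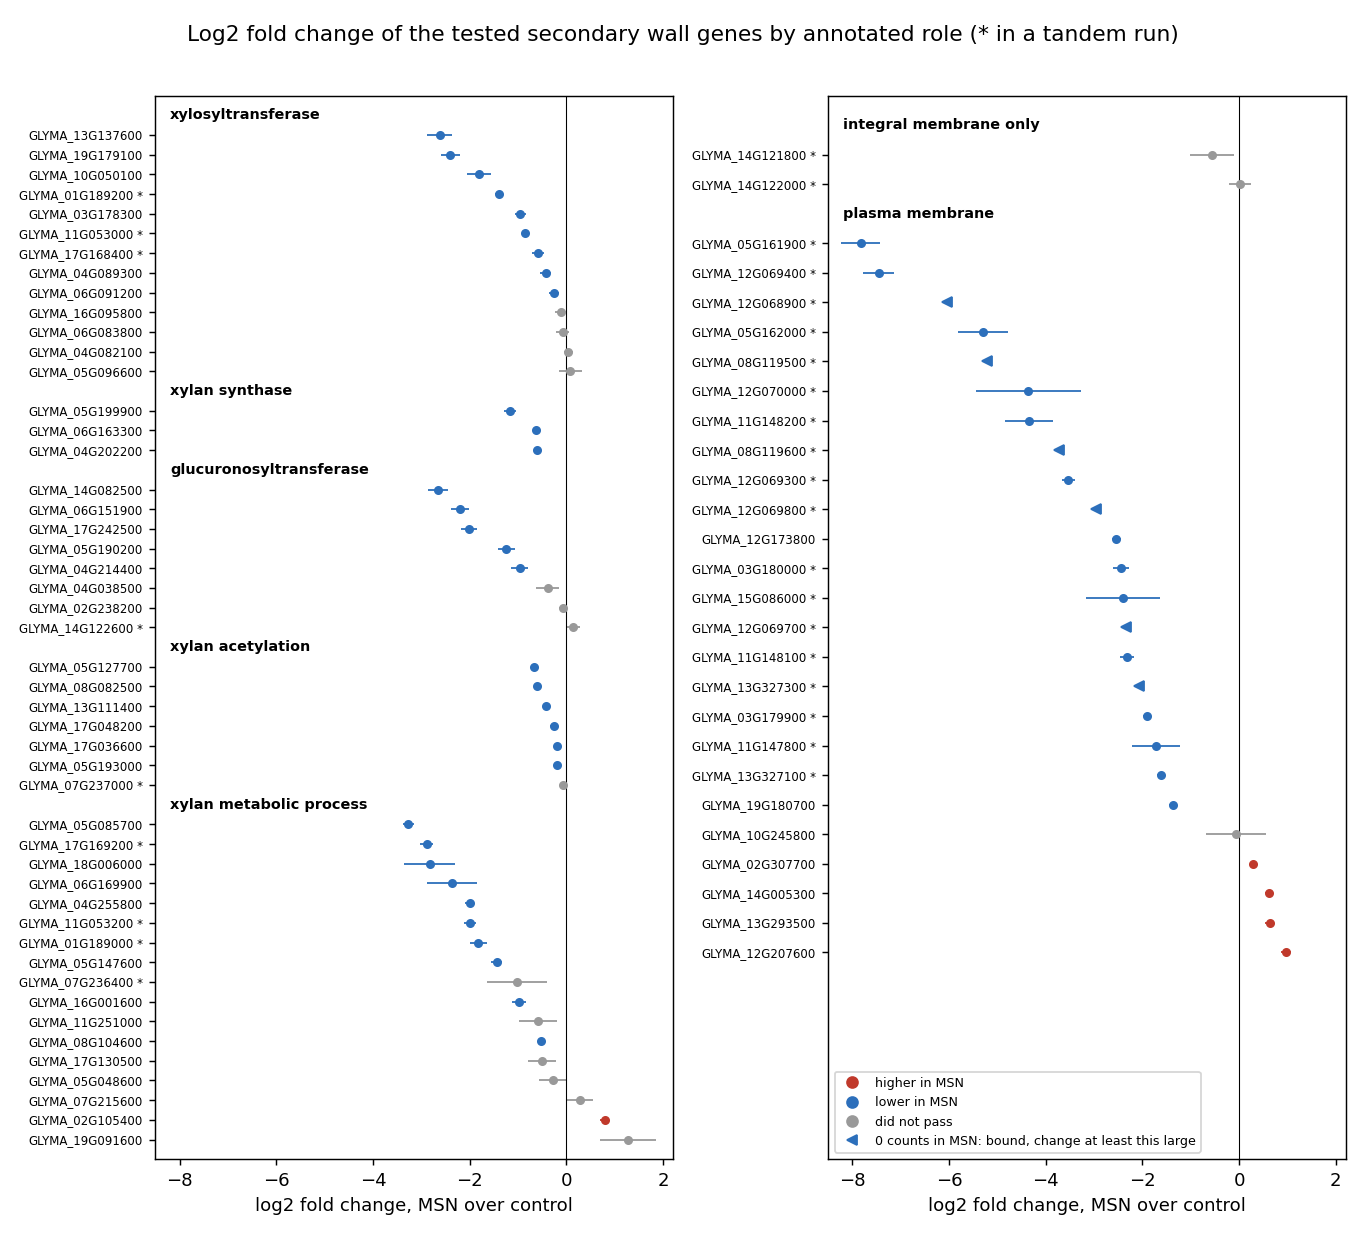
Log2 fold change (MSN over control) of the 75 tested genes by annotated role, with bars for the standard error and triangles for genes with 0 counts in all MSN libraries, placed at the floor bound. Blue genes were lower, red genes higher and grey genes did not pass: 53, 5 and 17.

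Summed within a library, each class with xylan terms was lower in every MSN library than in any control library. CPM is the count scaled to the TMM-adjusted library size. The 3 genes of the xylan synthase class together took 57.5 to 60.4 CPM in control and 32.9 to 37.0 CPM in MSN. The 13 xylosyltransferase genes took 137 to 139 CPM in control and 78.7 to 86.0 CPM in MSN, the 9 glucuronosyltransferase genes 48.7 to 52.1 and 33.0 to 34.6 CPM, and the 19 xylan metabolic process genes 166 to 172 and 82.9 to 92.1 CPM. The 7 acetylation genes took 293 to 308 CPM in control and 217 to 227 CPM in MSN. The 37 plasma membrane genes took 278 to 293 and 158 to 174 CPM. None of these 6 class sums overlapped between the groups, while those of the 2 genes with integral membrane terms only did, at 2.06 to 3.07 CPM in control and 1.74 to 2.87 in MSN.

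**Figure D2:**
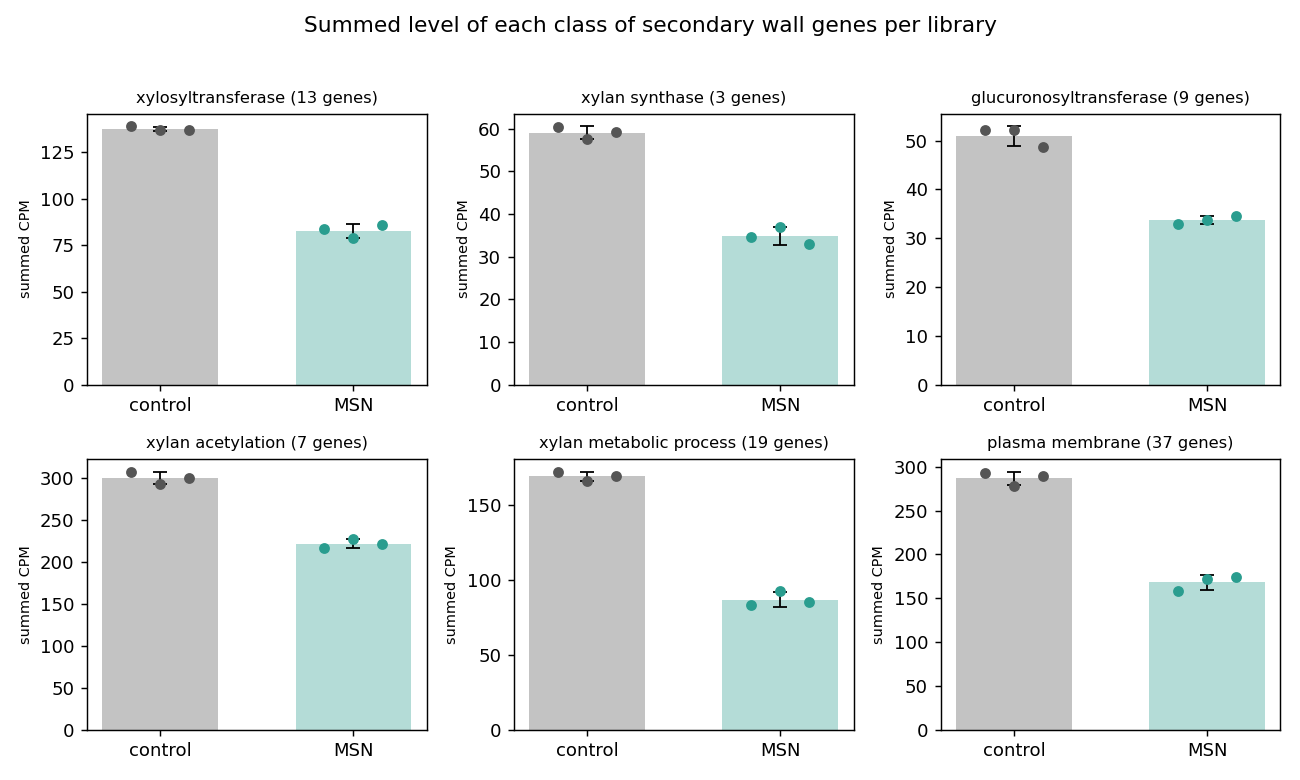
Summed CPM of each class in each library (points), with the group mean (bar) and SD (n = 3 libraries per group). In all 6 classes the MSN points lie below the control points, for example 217 to 227 against 293 to 308 CPM for xylan acetylation.

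All 3 genes of the xylan synthase class were lower. GLYMA_05G199900 measured 18.4, 17.2 and 17.6 CPM in the control libraries and 8.29, 9.32 and 5.93 CPM in the MSN libraries. Its groups did not overlap, and MSN replicate 3 was the lowest of the 6 libraries (log2 fold change -1.17, SE 0.12, edgeR adjusted p = 1.21e-07). GLYMA_04G202200 went from 22.1 ± 1.17 to 14.5 ± 1.55 CPM (SD, n = 3) and GLYMA_06G163300 from 19.3 ± 0.302 to 12.5 ± 1.36 CPM. Their log2 fold changes were -0.60 and -0.62. All 3 genes carry the term that set this class, glucuronoxylan glucuronosyltransferase activity, and a role in backbone synthesis was not tested.

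Of the 13 genes of the xylosyltransferase class, which carry a term for glucuronoxylan synthesis, 9 were lower, 0 higher and 4 did not pass. Their enzyme activity was not tested. GLYMA_01G189200, on chromosome 1, was the most abundant per length, with 29.1, 30.8 and 30.3 CPM in control and 12.5, 10.4 and 11.3 CPM in MSN. All MSN values lay under all control values (log2 fold change -1.40, SE 0.07, edgeR adjusted p = 8.94e-12). GLYMA_19G179100 showed a larger change, from 8.65, 9.05 and 8.66 CPM to 2.10, 0.987 and 1.92 CPM. Its control libraries were close to each other, and MSN replicate 2 was lowest (log2 fold change -2.40, SE 0.20). GLYMA_13G137600 had the largest change of the class, from 3.45 ± 0.141 to 0.559 ± 0.233 CPM (log2 fold change -2.62, SE 0.26). GLYMA_10G050100 fell by 1.80, GLYMA_03G178300 by 0.95, GLYMA_11G053000 by 0.85, GLYMA_17G168400 by 0.59 and GLYMA_04G089300 by 0.43 on the log2 scale. The remaining called gene, GLYMA_06G091200, was close to the threshold (log2 fold change -0.25, edgeR adjusted p = 0.0455). Its adjusted p was 0.223 without control replicate 1, 0.0885 without control replicate 3, and 0.0602, 0.114 and 0.0771 without MSN replicates 1, 2 and 3.

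The 4 xylosyltransferase genes that did not pass had values that overlapped between the groups. GLYMA_04G082100 measured 12.4, 11.9 and 11.5 CPM in control and 12.8, 12.9 and 11.0 CPM in MSN. GLYMA_06G083800 measured 7.13 ± 0.451 and 6.73 ± 1.44 CPM, GLYMA_16G095800 5.22 ± 0.250 and 4.85 ± 0.454 CPM, and GLYMA_05G096600 1.45 ± 0.0912 and 1.53 ± 0.394 CPM in control and MSN. Their log2 fold changes ran from -0.11 to 0.08, with standard errors from 0.09 to 0.24, so the class held genes with clear decreases beside genes with estimates near 0.

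Glucuronosyltransferases add the acidic side groups of xylan. Of the 9 genes in the glucuronosyltransferase class, 8 were tested, of which 5 were lower, 0 higher and 3 did not pass. GLYMA_14G082500 measured 4.06, 4.31 and 4.68 CPM in control and 0.645, 0.515 and 0.910 CPM in MSN, with no overlap (log2 fold change -2.66, SE 0.21, edgeR adjusted p = 3.87e-09). GLYMA_06G151900 went from 4.63 ± 0.126 to 1.01 ± 0.188 CPM and GLYMA_17G242500 from 6.54 ± 0.825 to 1.62 ± 0.129 CPM. The changes of GLYMA_05G190200 and GLYMA_04G214400 were -1.24 and -0.97 on the log2 scale.

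The most abundant glucuronosyltransferase gene behaved otherwise. GLYMA_02G238200 measured 24.1, 23.7 and 19.8 CPM in control and 20.6, 21.9 and 21.7 CPM in MSN, and did not pass (log2 fold change -0.08, SE 0.07, edgeR adjusted p = 0.405). GLYMA_14G122600, on chromosome 14, had 3.75 ± 0.527 and 4.12 ± 0.210 CPM, and GLYMA_04G038500 had 1.56 ± 0.298 and 1.18 ± 0.0819 CPM, and neither passed. The groups overlapped for the first 2 of these and not for GLYMA_04G038500. The untested GLYMA_05G060700 had 0 counts in all control libraries and 16, 21 and 8 counts in the MSN libraries. Against the floor of 12 counts over a group, it was at least 3.80-fold higher in MSN.

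The term xylan metabolic process covered 19 genes, of which 17 were tested, 10 were lower, 1 was higher and 6 did not pass. Both genes tied to methylation of the glucuronic acid side groups were lower. GLYMA_04G255800, which carries the term for glucuronoxylan methyltransferase activity, measured 24.6, 23.6 and 24.4 CPM in control and 6.68, 6.27 and 5.21 CPM in MSN. The libraries of each group lay close together and far from the other group (edgeR adjusted p = 8.48e-13). GLYMA_16G001600 (GXM3), whose name is that of an Arabidopsis gene for the same kind of methyltransferase, measured 7.92, 6.49 and 5.50 CPM and 3.61, 3.37 and 3.09 CPM. It showed more spread in control and a smaller change (log2 fold change -0.98, SE 0.15).

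The other genes of this term have no named activity in the table. The largest decrease among them was that of GLYMA_05G085700, from 19.4, 19.6 and 18.6 CPM in control to 2.09, 1.77 and 2.12 CPM in MSN. Its control mean was 9.64 times its MSN mean (log2 fold change -3.27, SE 0.11, edgeR adjusted p = 2.06e-14). GLYMA_17G169200 went from 9.85 ± 0.260 to 1.32 ± 0.0761 CPM, GLYMA_11G053200 from 9.66 ± 0.375 to 2.43 ± 0.204 CPM, GLYMA_01G189000 from 4.92 ± 0.262 to 1.39 ± 0.235 CPM and GLYMA_05G147600 from 14.3 ± 0.984 to 5.26 ± 0.621 CPM. GLYMA_18G006000 and GLYMA_06G169900 were lower too, at levels under 1 CPM in control.

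Among these genes, GLYMA_08G104600, the most abundant of all 90 per length, changed least among the called decreases: it measured 65.4, 63.5 and 66.2 CPM in control and 42.6, 49.2 and 44.5 CPM in MSN (log2 fold change -0.52, SE 0.05). GLYMA_02G105400 was the only gene of the Golgi branch called higher. It measured 8.55, 8.48 and 7.96 CPM in control and 13.3, 15.2 and 14.7 CPM in MSN, with no overlap (log2 fold change 0.79, SE 0.09, edgeR adjusted p = 9.04e-07). GLYMA_19G091600 measured 0.523, 0.117 and 0.106 CPM in control and 0.537, 0.707 and 0.565 CPM in MSN, and did not pass (edgeR adjusted p = 0.0691). Control replicate 1 lay just under the lowest MSN library, and without it the adjusted p was 0.00367. The other genes that did not pass, GLYMA_05G048600, GLYMA_17G130500, GLYMA_07G215600, GLYMA_07G236400 and GLYMA_11G251000, had log2 fold changes from -1.02 to 0.28, with standard errors from 0.28 to 0.62. GLYMA_07G236500 and GLYMA_04G195900 held 6 and 13 counts in all and were not tested.

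Acetylation, which affects how xylan lies against cellulose, showed smaller differences. Of 7 genes, 6 were lower, 0 higher and 1 did not pass, and all 7 log2 fold changes lay between -0.67 and -0.07. GLYMA_05G127700 measured 115, 109 and 106 CPM in control and 67.3, 70.8 and 69.7 CPM in MSN (log2 fold change -0.67, SE 0.04, edgeR adjusted p = 1.67e-10). GLYMA_08G082500 measured 55.8, 51.5 and 57.1 CPM and 37.3, 35.2 and 35.9 CPM (log2 fold change -0.60, SE 0.05). Neither gene's groups overlapped, and the table gives both, with GLYMA_17G036600, the same KEGG enzyme entry.

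The other acetylation genes had smaller differences. GLYMA_17G036600 went from 49.3 ± 2.09 to 43.0 ± 1.83 CPM and GLYMA_13G111400 from 20.7 ± 1.42 to 15.5 ± 0.926 CPM. GLYMA_17G048200 and GLYMA_05G193000 were lower by log2 fold changes of -0.26 and -0.19. The former lost its call without control replicate 3 (adjusted p = 0.0813) or MSN replicate 1 (adjusted p = 0.0524), and the latter without control replicate 2 (adjusted p = 0.0609). GLYMA_07G237000 had 21.2 ± 0.929 and 20.2 ± 1.76 CPM and did not pass.

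The 37 plasma membrane genes held both the largest decreases and most of the increases. Of the 25 tested, 20 were lower, each by at least 1 on the log2 scale, 4 were higher and 1 did not pass. Their median log2 fold change was -2.54 from the fitted values, and -2.40 with genes at 0 counts in MSN placed at their floor bound. Of the tested genes that lie in tandem runs, 18 of 18 were lower, but 10 of these had passed the filter through the control libraries alone, so that their direction was fixed. The other 8 were lower too, and without the 10 the median of the class was -1.72. Of these 8, GLYMA_11G147800, GLYMA_11G148200 and GLYMA_15G086000 had MSN libraries under 10 counts, so that only their control libraries met the filter as a group. Their decreases are not separate from the filter, and the median of -1.72 still includes them. Of the tested genes outside runs, where 0 had passed through the control libraries alone, 4 of 7 were higher and 2 lower. That lower share, 28.6%, is near the 29.7% of all tested genes, of which 29.6% were higher. With at least 600 counts over the 6 libraries, 8 genes in runs were tested, of which 3 had passed through control alone and the other 5 were lower, and 4 of 6 outside runs were higher and 2 lower. The difference between the positions was not tested, and genes of 1 run are not independent of each other.

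The genes outside runs were led by an abundant decrease. GLYMA_12G173800, on chromosome 12, measured 33.9, 34.8 and 40.6 CPM in control and 5.56, 6.91 and 6.36 CPM in MSN. Its control mean was 5.80 times its MSN mean (log2 fold change -2.54, SE 0.09, edgeR adjusted p = 2.57e-14). GLYMA_19G180700 went from 24.8 ± 1.76 to 9.56 ± 1.03 CPM.

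In the opposite direction, GLYMA_12G207600 measured 9.71, 8.10 and 11.0 CPM in control and 15.7, 19.5 and 21.1 CPM in MSN (log2 fold change 0.97, SE 0.11, edgeR adjusted p = 7.05e-07). GLYMA_14G005300 rose from 27.3 ± 2.46 to 41.7 ± 2.50 CPM, GLYMA_13G293500 from 10.8 ± 0.916 to 16.7 ± 0.880 CPM and GLYMA_02G307700 from 39.0 ± 1.82 to 47.4 ± 1.35 CPM. None of these 4 had overlapping groups. GLYMA_10G245800 had 0.278 ± 0.177 and 0.264 ± 0.109 CPM and did not pass. GLYMA_08G183700, named fasciclin-like arabinogalactan protein 19, was near the detection limit with 0, 0 and 5 counts in control and 10, 4 and 8 counts in MSN, and was not tested. Fasciclin-like arabinogalactan proteins are cell surface glycoproteins, and some of them are known in Arabidopsis from stems that are forming secondary walls.

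In MSN leaves, 14 of the 37 plasma membrane genes had 0 counts in all 3 libraries but had counts in control, and all 14 lie in tandem runs. Of the 24 plasma membrane genes with at least 60 counts, 6 were at 0 in MSN. Over the table of 45967 genes, 1350 were at 0 in MSN alone and 1690 at 0 in control alone. A count of 0 was taken to allow 12 counts over the 3 libraries. The largest run is on chromosome 12 at 5053020 to 5131534, with 9 genes in 78.5 kb, in coordinates as the table gives them for a build not named in the sources used here. GLYMA_12G068900 at its edge measured 306, 248 and 250 counts in control and 0, 0 and 0 in MSN, which makes it at least 66.2-fold lower in MSN. GLYMA_12G069400 measured 890, 831 and 669 counts in control and 0, 4 and 9 counts in MSN. Its neighbour GLYMA_12G069300 measured 885, 947 and 782 counts and 75, 72 and 76 counts, so 2 adjacent genes with similar control levels kept different remainders (log2 fold changes -7.46, SE 0.32, and -3.53, SE 0.14). The other 6 genes of the run had 38 to 95 counts over the control libraries and 0 to 2 counts over the MSN libraries. GLYMA_12G069900 among them had 0 counts in control replicate 3 as well, so its groups overlap.

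The run on chromosome 11, at 11399546 to 11472739, holds 7 genes in 73.2 kb. GLYMA_11G148100 measured 574, 632 and 535 counts in control and 113, 112 and 119 counts in MSN (log2 fold change -2.32, SE 0.14, edgeR adjusted p = 6.18e-11). GLYMA_11G148200 measured 216, 158 and 105 counts in control, which is uneven, and 9, 14 and 0 counts in MSN. GLYMA_11G147800 measured 69, 77 and 53 counts and 20, 36 and 4 counts (log2 fold change -1.72, SE 0.50, edgeR adjusted p = 0.00642). The 4 others had 27 to 45 counts over the control libraries, too few for the test, and 0 to 2 counts over the MSN libraries.

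**Figure D3:**
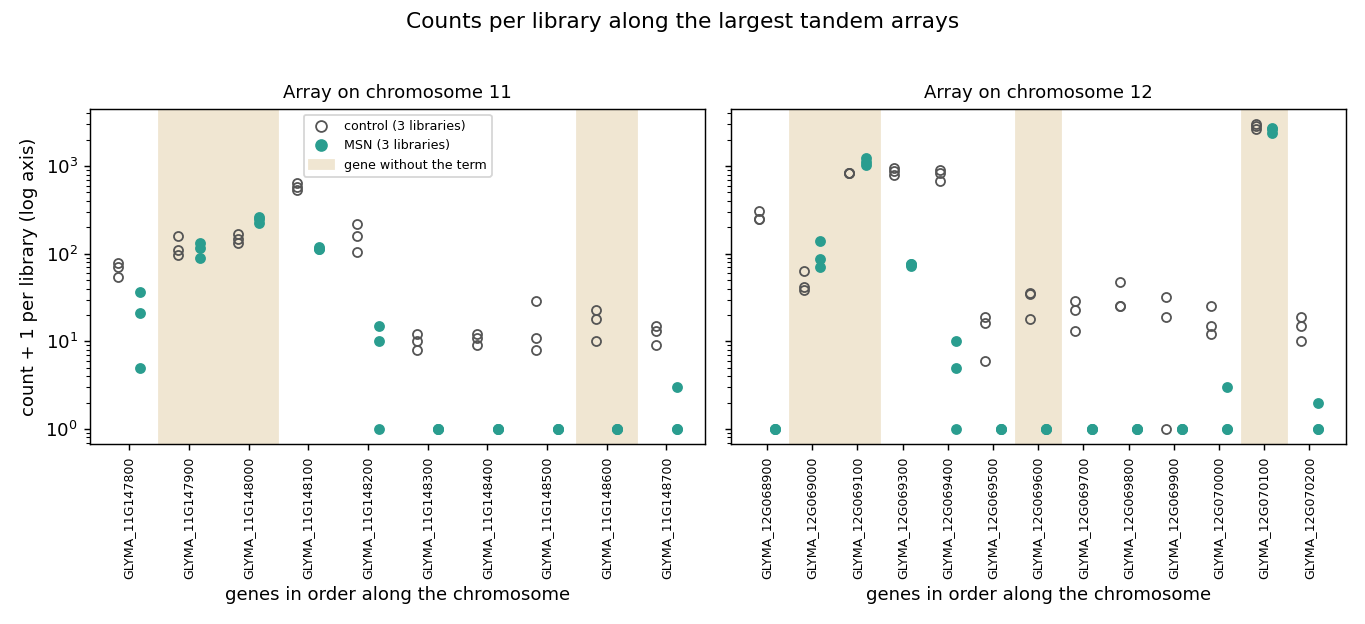
Count plus 1 per library (log axis) of each gene in the runs on chromosomes 11 and 12, in order along the chromosome; shaded genes lie inside the run without the secondary wall term. MSN values of the unshaded genes lie at or below the control values; of the shaded genes, GLYMA_12G069100, GLYMA_12G069000 and GLYMA_11G148000 were higher in MSN, and GLYMA_12G069600 and GLYMA_11G148600 were at 0 in MSN.

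The genes that interrupt these runs differed in direction and were named after their values were seen. GLYMA_12G069100, a nuclear gene annotated with protein heterodimerization, lies between GLYMA_12G068900 and GLYMA_12G069300 and rose from 12.6 ± 0.264 to 17.1 ± 1.05 CPM. Beside it, the beta-galactosidase gene GLYMA_12G069000 had 0.711 ± 0.213 and 1.49 ± 0.493 CPM and was also called higher (edgeR adjusted p = 0.0069). On chromosome 11, a gene with the same heterodimerization term, GLYMA_11G148000, rose from 2.24 ± 0.313 to 3.74 ± 0.237 CPM, and the beta-galactosidase gene GLYMA_11G147900 did not pass (1.84 ± 0.516 and 1.70 ± 0.315 CPM). Further along, GLYMA_12G069600 and GLYMA_11G148600, annotated only as membrane genes, had 86 and 48 counts over the control libraries and 0 in MSN. GLYMA_12G070100 had 42.9 ± 3.38 and 39.4 ± 1.25 CPM and did not pass. Of the 10 table genes on each side of a run, 18 were tested at each: 5 were higher and 5 lower around the chromosome 11 run, and 3 higher and 4 lower around the chromosome 12 run.

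The smaller plasma membrane runs held from 2 to 3 genes each. On chromosome 3, GLYMA_03G179900 measured 32.5, 32.0 and 37.3 CPM in control and 9.46, 9.26 and 8.26 CPM in MSN (log2 fold change -1.91, SE 0.08), and its neighbour GLYMA_03G180000 went from 10.3 ± 1.72 to 1.90 ± 0.292 CPM. On chromosome 13, GLYMA_13G327100 went from 39.4 ± 1.00 to 12.8 ± 1.24 CPM, while GLYMA_13G327300 had 51 counts over the control libraries and 0 in MSN. Every tested gene of both runs was lower, but GLYMA_13G327300 had passed the filter through the control libraries alone, so its direction was fixed.

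On chromosome 5, GLYMA_05G161900 measured 314, 313 and 380 counts in control and 0, 4 and 0 counts in MSN, a ratio of 249 with an exact binomial 95% interval of 44.3 to 9870 for counting error. Its neighbour GLYMA_05G162000 measured 109, 125 and 100 counts and 5, 3 and 0 counts, a ratio of 41.2 with an interval of 11.1 to 348. On chromosome 8 all 3 genes of a run were at 0 in MSN. GLYMA_08G119500 measured 171, 133 and 148 counts in control, and was at least 37.2-fold lower in MSN. GLYMA_08G119600 measured 58, 48 and 56 counts and was at least 13.3-fold lower, and GLYMA_08G119400 held 18 counts in control.

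The run on chromosome 15 was thinner: GLYMA_15G086000 measured 23, 43 and 26 counts in control and 4, 13 and 0 counts in MSN, and its call (edgeR adjusted p = 0.0114) was lost without control replicate 2 (adjusted p = 0.0527) or MSN replicate 1 (adjusted p = 0.0556). GLYMA_15G086100 beside it had 46 counts in control and 0 in MSN. In the second pair on chromosome 13, GLYMA_13G226000 had 7, 46 and 18 counts in control and 0 in MSN, most of them in control replicate 2, and GLYMA_13G226100 had 3 counts in 1 MSN library only. The handling of reads shared between close copies was not given in the sources used here, and the split of counts among neighbours of a run is uncertain.

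The Golgi branch had tandem pairs of another kind. On chromosomes 1, 11 and 17, a xylosyltransferase gene lies near a gene of the xylan metabolic process term, with a calmodulin-binding transcription factor gene between them. Both wall genes were lower at each place, and in each pair the xylan metabolic process gene changed more: -1.82 against -1.40 for GLYMA_01G189000 and GLYMA_01G189200, -1.99 against -0.85 for GLYMA_11G053200 and GLYMA_11G053000, and -2.89 against -0.59 for GLYMA_17G169200 and GLYMA_17G168400 on the log2 scale. The factor gene between them went both ways. GLYMA_01G189100 fell from 49.4 ± 1.06 to 31.8 ± 0.919 CPM, and GLYMA_17G168900 from 29.5 ± 1.02 to 19.2 ± 0.903 CPM, whereas GLYMA_11G053100 rose from 6.27 ± 0.737 to 8.30 ± 0.881 CPM. On chromosome 17 the pair also encloses GLYMA_17G169100, a dioxygenase gene that rose from 20.8 ± 1.20 to 44.3 ± 0.112 CPM.

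The remaining runs held no called member. On chromosome 14, GLYMA_14G121800 and GLYMA_14G122000, the 2 genes with integral membrane terms only, lie beside the glucuronosyltransferase gene GLYMA_14G122600. They measured 0.615 ± 0.216 and 0.416 ± 0.166 CPM, and 1.86 ± 0.384 and 1.87 ± 0.400 CPM, in control and MSN. On chromosome 7, GLYMA_07G236400, GLYMA_07G236500 and GLYMA_07G237000 form a run whose 2 tested genes did not pass.

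Other genes of wall synthesis, taken by their own terms and without any of the 90, differed from list to list. Over all the lists together, 79 of 185 tested genes (42.7%) were lower and 47 (25.4%) higher, with a median log2 fold change of -0.21. Of all tested genes, 29.7% were lower and 29.6% higher, and each list is read against these shares. For cellulose synthase activity, 24 of 48 tested genes were lower and 13 higher (median -0.26). Primary cell wall biogenesis had 24 of 49 lower and 13 higher. Its summed CPM was the same, 2960 to 3050 in control and 2490 to 2540 in MSN, so it is not a separate result. The wider cellulose biosynthetic process had 27 of 54 lower and 15 higher. Large decreases were seen here too. A called decrease of 1 or more (log2) was found for 15 of the 48 cellulose synthase genes, and a called increase of that size for 1. Of all tested genes, 7.01% and 9.27% changed by that much. Only the 2 most abundant called genes changed little and in both directions: GLYMA_04G067900 fell from 248 ± 4.02 to 216 ± 2.31 CPM and GLYMA_08G145600 rose from 221 ± 4.20 to 247 ± 6.55 CPM. Cellulose microfibril organization, whose named genes carry anchored-membrane terms, had 6 of 14 lower and 3 higher. There GLYMA_18G272000 had 56.3 ± 3.84 and 50.2 ± 2.22 CPM, and GLYMA_08G249700 rose from 18.9 ± 1.00 to 29.8 ± 0.891 CPM. The call of GLYMA_18G272000 was lost without control replicate 1 (adjusted p = 0.0930) or MSN replicate 1 (adjusted p = 0.0579).

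Xylan genes outside the 90 were few. For xylan biosynthetic process, 2 of 3 tested genes were lower: GLYMA_06G231300, the 1 gene with xylan O-acetyltransferase activity, fell from 3.08 ± 0.502 to 0.887 ± 0.378 CPM, and GLYMA_02G240800 from 6.13 ± 0.431 to 4.78 ± 0.277 CPM. For glucuronoxylan biosynthetic process, 3 of 4 were lower and 1 higher, with log2 fold changes from -2.88 to 2.08, the last being that of the higher gene. The 2 most abundant called genes fell, GLYMA_11G193500 from 28.5 ± 0.589 to 13.8 ± 0.586 CPM and GLYMA_12G080300 from 8.31 ± 0.246 to 6.62 ± 0.489 CPM. GLYMA_02G240800 and GLYMA_12G080300 lost their calls without control replicate 3 (adjusted p = 0.0877 and 0.0524) or MSN replicate 3 (adjusted p = 0.0776 and 0.0839).

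Lignin, the third polymer, had 9 of 15 tested synthesis genes lower and 2 higher (median -1.39). The cinnamyl-alcohol dehydrogenase genes GLYMA_14G221200 and GLYMA_10G262400, whose enzymes make lignin's alcohol precursors, both fell: the former measured 358 ± 10.7 CPM in control against 72.9 ± 4.25 CPM in MSN, and the latter 72.8 ± 1.63 against 27.7 ± 0.334 CPM. The lignin catabolic process term had 18 of 35 lower and 6 higher (median -1.24). Its 2 most abundant called genes, both annotated with copper binding, the apoplast and hydroquinone:oxygen oxidoreductase activity, fell too. GLYMA_01G112600 went to 13.4 ± 1.17 CPM from 53.2 ± 1.36 CPM and GLYMA_03G077900 to 12.8 ± 0.470 CPM from 37.9 ± 1.19 CPM. Whether these 2 genes act in lignin breakdown was not tested. Xyloglucan metabolism, which belongs to the primary wall, had 16 of 63 lower and 22 higher (median 0.10). In it GLYMA_08G093900, a xyloglucan transferase gene, fell from 120 ± 3.13 to 54.3 ± 2.08 CPM, and GLYMA_01G034700, an O-acetyltransferase gene, rose from 38.5 ± 0.639 to 61.7 ± 1.63 CPM. The secondary wall genes that also carry the xyloglucan term match the 7 acetylation genes in number and summed CPM. With them included, 22 of 70 tested genes were lower and 22 higher (median 0.07). The table holds 0 genes with the term for regulation of secondary cell wall biogenesis.

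**Figure D4:**
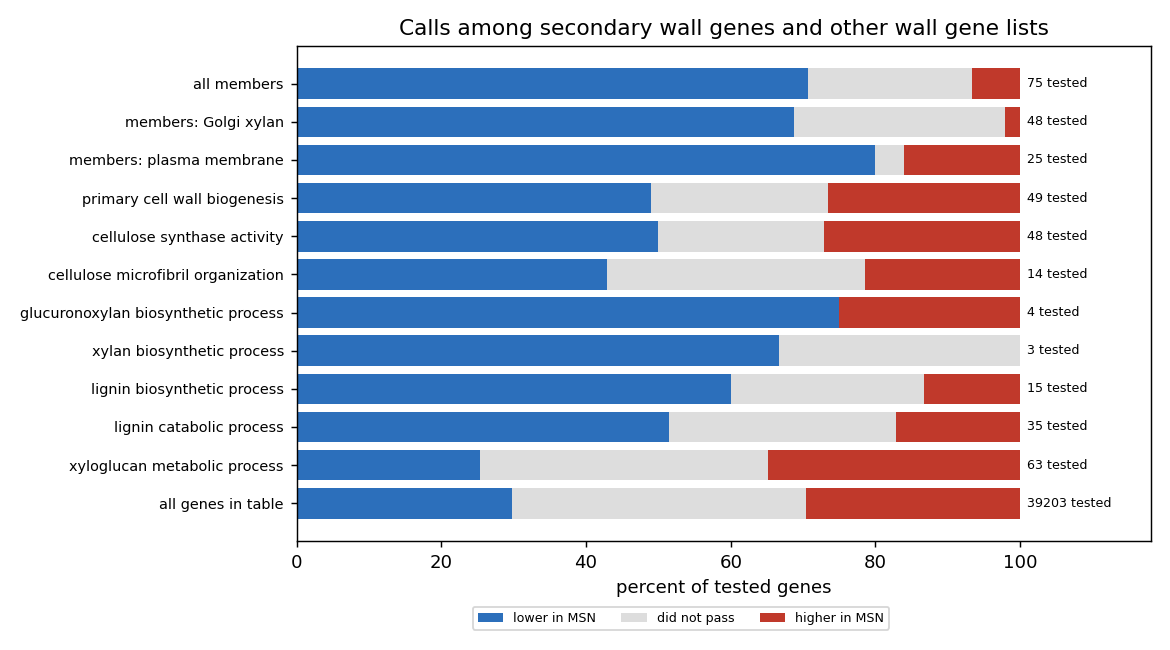
Percent of tested genes lower (blue), higher (red) or not passing (grey) among the secondary wall genes and, without them, among other wall lists, with all tested genes at the bottom. The lower share is 70.7% for the secondary wall genes, 25.4% for xyloglucan metabolism and 29.7% for all genes. With the secondary wall genes that share its term, the xyloglucan share is 31.4%.

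Markers of leaf cell types are read here against the 29.6% of all tested genes that were higher and the 29.7% that were lower. Light-harvesting genes, which mark green leaf cells, took 6540 to 6850 CPM in control and 9140 to 9590 CPM in MSN, with 32 of 39 higher and 2 lower. For xylem development, 1 of 8 tested genes was higher and 1 lower, and the 12 genes of the term took 9.32 to 11.1 CPM in control and 8.79 to 9.15 CPM in MSN. For phloem development, 15 of 18 were higher and 0 lower (38.3 to 47.8 and 102 to 119 CPM). Leaf vein pattern genes, with 3 of 8 higher and 2 lower, lay near those shares (76.0 to 83.7 and 69.0 to 77.1 CPM), and the 1 gene for xylem and phloem pattern was lower (68.4 to 72.1 and 44.0 to 46.6 CPM). Stomatal and guard cell genes had 4 of 16 higher, also near the share of all genes, and 1 lower (69.7 to 78.1 and 63.7 to 66.4 CPM). Of dividing-cell markers, microtubule motor genes had 59 of 132 higher and 15 lower (1630 to 1660 and 1880 to 1930 CPM), and nucleosome genes 49 of 100 higher and 13 lower (2720 to 2830 and 2810 to 2860 CPM). At 0 in all control libraries were 2 xylem, 6 stomatal and guard cell, 2 microtubule motor and 1 nucleosome gene, and at 0 in all MSN libraries 1 stomatal and guard cell and 1 microtubule motor gene. The part of these markers in the secondary wall result was not tested.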

How the data were processed

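Polyadenylated leaf RNA was measured in 3 control and 3 MSN libraries, grouped by sample title; library totals ran from 63981150 to 67923813 counts. Per the file headers, the deposited table holds a count and an FPKM value for each gene and library; the counts are whole numbers. How the authors computed FPKM, and the aligner, counter, strand setting, build and annotation, were not given in the sources used here. The submitters' processing notes list DESeq2 1.34.0 and R 4.1.2. Counts were fitted by group with edgeR 4.0.16 under R 4.3.3 (quasi-likelihood test, TMM, filterByExpr, 2-sided) and adjusted over 39203 genes; the standard error is the log2 fold change divided by the root of the F statistic. That fit was tested on simulated data. Alternatives used DESeq2 1.42.0 and limma 3.58.1.

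Small counts pile up at 4 (17.7 to 19.0% of counts from 1 to 12), so 1 counting event was assumed to be 4 counts and the floor 3 events, 12 counts over a group; bounds compare pooled counts per effective library size, and intervals and floors cover counting error only. The genes and lists were chosen with earlier results of these data known. Genes named were the 10 of highest FPKM, the 8 largest rises and falls, those in runs, described, at 0 in a group or not passing, and in each list the 2 most abundant called genes; other genes were named after their values were seen. Secondary wall genes were classed by their other GO terms. The titles call the replicates biological, and separate plants or pots were not given in the sources used here; p-values then measure only the spread between these libraries. A reference gene table matched 0 identifiers.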

Additional observations from a re-analysis of the deposited data

How the results depend on the processing

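Over 16 alternatives (other scalings, DESeq2, other low-count filters, FPKM on a log scale, counts divided by 4, a replicate block and each library left out), 69 of 75 tested secondary wall genes had no call lost or gained in any fit that tested them, and none changed sign while called. Counts divided by 4 left 10 of the 75 untested, 6 of them called lower, and the filter of 10 counts in every library of a group left 1 untested, not called. The number lower in MSN was 53 and ran from 51 to 60 with 1 library left out, and 5 to 7 were higher. Those fits each tested 1 to 9 genes beyond the 75, of which 0 to 8 were lower. Counts divided by 4 gave 47 lower, 15 of them plasma membrane genes against 20. DESeq2 and the unfiltered fit each gave 62 lower, of which 9 and 10 were genes not tested otherwise. Same-numbered libraries did not deviate together (correlations of -0.00258, 0.0104 and 0.00184), so the numbers were not taken as pairing; with the replicate block, 53 were lower and 5 higher. Outside tandem runs, an alternative chosen after seeing the data, 29 of all the genes and 2 of the plasma membrane genes were lower, by construction fewer genes. With at least 600 counts, 10 plasma membrane genes were lower, and also 10 without the genes that passed the filter through control alone, likewise chosen after seeing the data and fewer by construction. The number of Golgi branch genes called higher was 1 and came to 2 under quantile normalisation, no filter and FPKM with pseudocounts of 1 or 0.1, to 3 under DESeq2, and to 1 to 3 with a library left out; GLYMA_19G091600 entered under quantile normalisation, DESeq2 and FPKM. GLYMA_07G236400 entered as lower on FPKM (adjusted p = 0.00575 and 0.00956). GLYMA_06G091200 lost its call with no filter and on FPKM (adjusted p = 0.0605, 0.0626 and 0.0574), and GLYMA_18G272000 under quantile normalisation (adjusted p = 0.0788). The causes were not tested. Scaling moved the median of all genes by at most 0.014 on the log2 scale. Depth limits the genes of tandem runs with few control counts, for which a lower level in MSN was seen without a test.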
